A study of Mus musculus with 3 samples.

Results

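The genes described here are the mouse histone modifying enzymes and SWI/SNF-related subunits whose symbols begin with Kdm, Jhdm, Setd, Smarc, Hdac, Sirt or Kat followed by their family number or letter, together with Ezh1 and Ezh2. Kdm5d was left out by that rule. Symbols came from the annotation of the array platform, only probe sets that name 1 gene were used, and where several such sets named a gene, the brightest by mean log2 signal over the 3 arrays stands for it. The rule found 68 genes of 19938, and used no measured difference. They comprise 17 lysine demethylases, 10 SET domain methyltransferases, 2 EZH methyltransferases, 8 lysine acetyltransferases, 11 zinc-dependent deacetylases, 7 sirtuins and 13 SWI/SNF-related genes.

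Total RNA was profiled on 3 Affymetrix gene arrays of sieved adult renal corpuscles, the filtering units of the kidney, each made of a capillary tuft wrapped by podocytes and enclosed in a capsule. All 3 samples belonged to 1 group of wild-type CD-1 male mice aged 7 to 9 weeks, with no transgene and no treatment named in the labels, and each sample pooled about 2 kidneys. The minced kidneys were digested for 15 minutes at 37 °C with collagenase A at 0.5%, corpuscles were retained through filters of 100, 70 and 40 µm, and the RNA had 1 round of amplification. No cells were sorted, CD-1 is an outbred stock, and no label ties a pool to a litter or a day, so part of the spread between arrays may be technical. There is no second condition, and the data therefore describe which chromatin genes gave a signal in this preparation and how far its preparations differed.

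Histone tails carry acetyl and methyl groups on lysines. Acetyltransferases add acetyl groups, which loosen chromatin and are read by bromodomain proteins, and deacetylases and sirtuins remove them. Methyltransferases and demethylases set marks whose meaning depends on the lysine: some stand at active promoters or along transcribed genes, others, such as the mark laid down by EZH enzymes in the Polycomb repressive complex, at silent ones. SWI/SNF and ISWI complexes use ATP to slide or evict nucleosomes. Podocytes are long-lived cells that do not normally divide, and several of these enzymes, among them Ezh2, Sirt1 and Hdac4, have been studied in podocyte injury.

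Signals are log2 values, and each probe set has its own affinity, so each gene was set against background and not against another gene. As background served 1212 probe sets of olfactory and vomeronasal receptors, whose 95th percentile lay at 6.90, 6.96 and 6.92 log2 on replicates 1, 2 and 3. A level below is the mean log2 signal over the 3 arrays minus this background. The background of an array is the same for every gene, so probe affinity remains in a level. A gene was called detected when its level exceeded 0 in a one-sided limma test with a Benjamini-Hochberg adjusted p under 0.05 over all genes. In unsorted tissue a low signal may come from few cells of a type or from little RNA per cell, and the 2 cannot be told apart.

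Nearly all of these genes gave a signal above background in the renal corpuscle preparations. Of the 68, 66 were detected, against 58.9% of all genes, and the undetected pair was Kdm4d and Hdac11. The median level of the 68 was 1.54 log2, or 2.91 times background, and that of all genes was 0.37. A linear signal of 150, the filter the study used, was passed on all 3 arrays by 61 members, beside 51.3% of all genes. A linear signal of 500 was passed by 23 of them, beside 17.2%. The highest class, over 1000, held 8 of the 68, namely Hdac1, Hdac2, Setd3, Setd5, Kdm7a, Smarca2, Smarca5 and Smarcc2, beside 7.59% of all genes. The members' levels ran from -0.85 for Kdm4d to 4.25 for Hdac1. The counts of families and partner lists below are to be read beside these shares of all genes.

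**Figure D1:**
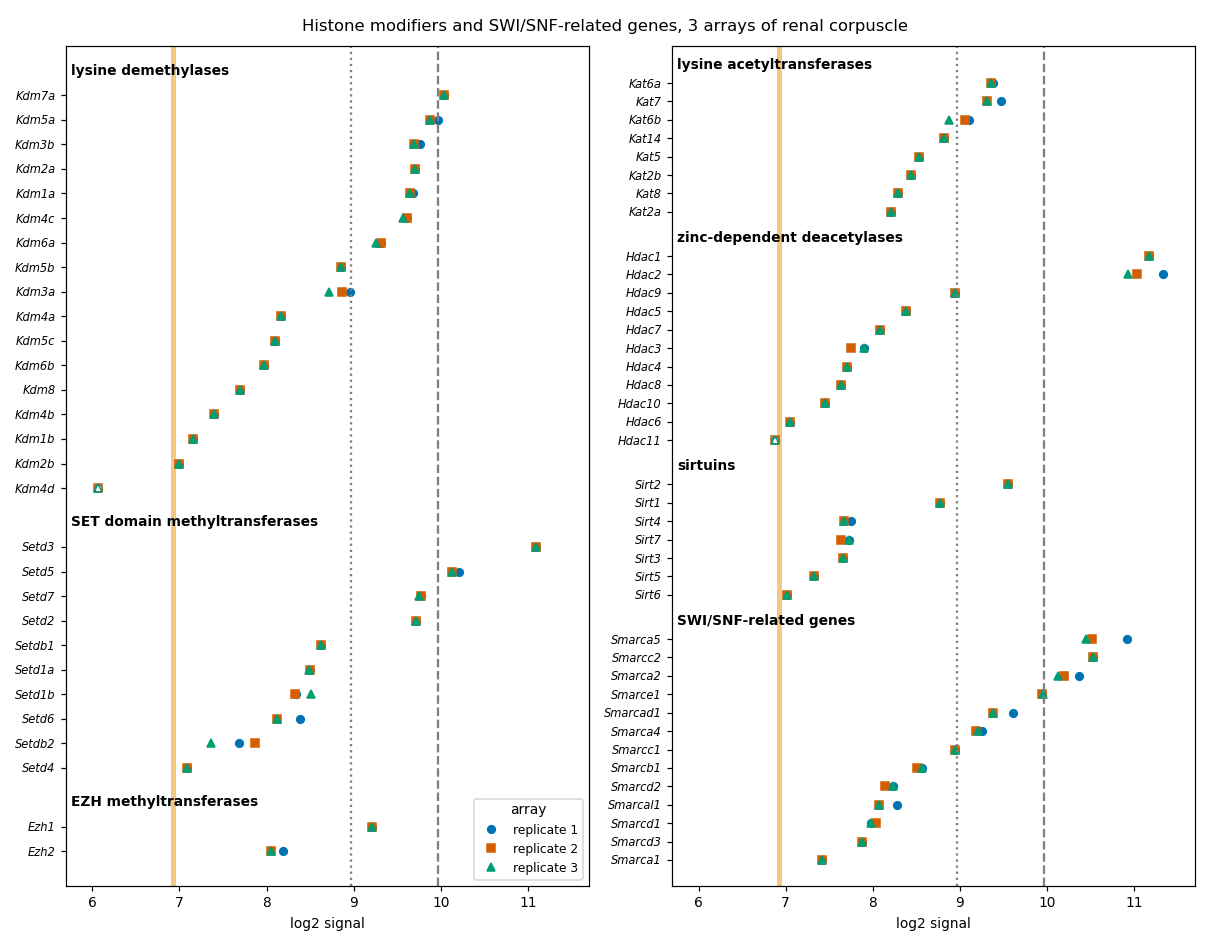
Log2 signal (horizontal axis) of each of the 68 genes on the 3 arrays, by family, with a circle for replicate 1, a square for replicate 2 and a triangle for replicate 3, and open symbols for the undetected Kdm4d and Hdac11. The orange band is the background of the 3 arrays, 6.90 to 6.96 log2, and the dotted and dashed lines are linear signals of 500 and 1000. Most genes sit to the right of the band with their 3 symbols on top of each other, and only 8 lie beyond the dashed line on every array.

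The arrays carried the cells that a renal corpuscle should hold. All 6 measured podocyte markers, all 7 glomerular endothelial markers and all 5 mesangial markers were detected, with median levels of 4.42, 4.03 and 4.42 log2. Markers of other kidney cells were also present at lower medians: 7 of 8 for the proximal tubule (0.65), 5 of 8 for the distal tubule and collecting duct (0.69) and 5 of 7 for immune cells (0.81). Single markers of these cells stood much higher: the proximal tubule gene Kap held 10.47, 10.78 and 10.58 log2, a level of 3.68, and Calb1, Umod and Tyrobp had levels of 2.46, 2.32 and 2.16. Of 9 measured genes of dividing cells 5 were detected, with a median of 0.19, and the proliferation marker Mki67 was at 6.37, 5.91 and 6.06 log2, below background. The part of tubule and immune cells in the levels of the chromatin genes was not tested.

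Lysine demethylases fall into the flavin-dependent KDM1 enzymes and the JmjC-domain enzymes that use iron and 2-oxoglutarate. Of the 17, 16 were detected, beside 58.9% of all genes, with a median level of 1.92 log2. A linear signal of 500 was passed by 7 and of 1000 by 1, beside 17.2% and 7.59% of all genes. Kdm7a, which removes repressive methyl groups and was formerly called Jhdm1d, held 10.04, 10.03 and 10.03 log2 on the 3 arrays, 3.11 above background. Kdm5a, an eraser of the methyl mark of active promoters, held 9.97, 9.88 and 9.88, and its relatives Kdm5b and the X-linked Kdm5c were at 8.86 and 8.10 on every array. Kdm3b, which acts on the heterochromatin mark of histone H3, held 9.77, 9.69 and 9.69, and Kdm3a held 8.96, 8.86 and 8.72. All 3 KDM5 and both KDM3 genes thus stood at least 1.17 log2 above background.

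Close relatives in this family ended at very different distances from background. Kdm2a, a CpG-binding demethylase, was at 9.71 log2 on all arrays, a level of 2.78, whereas its paralogue Kdm2b was at 6.99, a level of 0.07 with a standard error of 0.03. Kdm2b was the detected member closest to background (limma adjusted p = 0.019). It held 1 value on all 3 arrays, so leaving out an array changed the background and the test but not its signal. The call was lost under 5 settings, namely without replicate 1, without replicate 3, with background at the 99th percentile of the receptors or from olfactory receptors only, and at an adjusted p under 0.01. Kdm1a, the demethylase of the CoREST complex, held 9.68, 9.65 and 9.65, and Kdm1b was at 7.16 on every array, 0.23 above background. In the KDM4 group, which acts on heterochromatin and gene-body marks, Kdm4c held 9.61, 9.61 and 9.57, Kdm4a 8.16 on all arrays and Kdm4b 7.39, 7.40 and 7.40. Kdm4d, an intronless relative known from testis, was at 6.07 on all 3 arrays, 0.85 log2 below background. Of the enzymes that remove the Polycomb mark, Kdm6a, on the X chromosome, held 9.31, 9.31 and 9.25 and Kdm6b 7.97 on every array, levels of 2.37 and 1.05. The remaining family member, Kdm8, was at 7.70, a level of 0.77. The same array background was subtracted from every gene, so the affinity of each probe set remains in its level. A difference in level between paralogues may therefore also reflect their probes.

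All 10 SET domain genes were detected, beside 58.9% of all genes, with a median level of 1.64 log2. A linear signal of 500 was passed by 4, beside 17.2% of all genes. Setd3, whose product methylates a histidine of actin, held 11.09 on all 3 arrays, a level of 4.16. Setd5 held 10.21, 10.13 and 10.13, a level of 3.23. Setd7, which methylates histone H3 and many other proteins, held 9.77, 9.77 and 9.75, and Setd2, the enzyme of the trimethyl mark along transcribed genes, 9.72, 9.72 and 9.71. These 4 stood over 500 on every array. The promoter methyltransferases Setd1a and Setd1b held 8.50, 8.50 and 8.48 and 8.34, 8.33 and 8.51, levels of 1.57 and 1.47, and the heterochromatin enzyme Setdb1 was at 8.63 on each array. Setd6, which methylates a subunit of NF-kappaB, held 8.38, 8.12 and 8.12. Setdb2 held 7.69, 7.86 and 7.36, and Setd4, at 7.09, 7.09 and 7.08, was the lowest of the family at 0.16 above background.

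Ezh1 and Ezh2 are the alternative catalytic subunits of Polycomb repressive complex PRC2. As background, Ezh2 is known mainly from dividing cells and Ezh1 from resting tissue. Ezh1 held 9.21 log2 on all 3 arrays, a level of 2.28, and Ezh2 held 8.19, 8.05 and 8.05, a level of 1.17 with a standard error of 0.04. Both were detected. The signals of the 2 genes come from different probe sets and are not a ratio of transcripts. The rest of the Polycomb machinery was present: 23 of 25 measured partners were detected, 9 of them over 500, with a median level of 1.38. Rbbp7, a histone-binding subunit shared with deacetylase complexes, held 11.31, 11.20 and 11.12, Phc3 of the PRC1 complex 11.19, 10.76 and 10.79, and Bmi1 10.06 on every array. Undetected were Pcgf6 and Phf19, with means of 6.98 and 6.70.

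All 8 lysine acetyltransferase genes were detected, beside 58.9% of all genes. Their levels lay between 1.29 and 2.44 log2, the narrowest range among the families with over 2 genes. Of the MYST enzymes, Kat6a held 9.38, 9.36 and 9.36, Kat7 9.47, 9.31 and 9.31, and Kat6b 9.10, 9.05 and 8.87. Kat14, a subunit of the ATAC complex, was at 8.81 on all arrays. Kat2a and Kat2b, the Gcn5 and PCAF enzymes of the SAGA complex, were at 8.21 and 8.43 on all arrays, levels of 1.29 and 1.51. Kat5, of the Tip60 complex, and Kat8, which acetylates histone H4, are MYST enzymes too and were at 8.53 and 8.29. Other acetyltransferases and their complex partners were also above background in 31 of 32 cases with a median level of 1.86. Among these the highest were Clock (mean 10.18), Ing3 (10.16) and Crebbp (10.13), and Jade2 was undetected at 6.82.

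The 11 zinc-dependent deacetylases ran from -0.04 to 4.25 log2 relative to background, and 10 of them were detected, beside 58.9% of all genes. A linear signal of 500 was passed by 2 of the 11, beside 17.2% of all genes. Class I, the nuclear enzymes of repressor complexes, had a median level of 2.55 log2 over 4 genes, class IIa, which shuttles between nucleus and cytoplasm, 1.31 over 4, class IIb 0.33 over 2, and the only class IV gene, Hdac11, was undetected. Hdac1 held 11.17 on all 3 arrays, 19.0 times background. Hdac2, its close partner, held 11.33, 11.04 and 10.93, 18.1 times background. The other class I genes were much closer to background: Hdac3 held 7.90, 7.75 and 7.90 and Hdac8 7.64 on each array.

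In class IIa, Hdac9 was at 8.94, Hdac5 at 8.38, Hdac7 at 8.09 and Hdac4 at 7.70 log2, each with 1 value on all 3 arrays. The cytoplasmic class IIb genes Hdac10 and Hdac6, the latter known as a tubulin deacetylase, were at 7.45 and 7.05. Hdac11 was at 6.88, a level of -0.04 with a standard error of 0.03, so that it was not distinguished from background. Repressor complexes that carry Hdac1, Hdac2 or Hdac3 were represented by 24 of 25 measured partners, 11 of them over 500, with a median level of 1.76. Mbd2, a reader of methylated DNA in the NuRD complex, held 11.69, 11.54 and 11.49, Gatad2b 10.74, 10.64 and 10.58, and Sap18 of the Sin3 complex 10.81, 10.50 and 10.58. Rcor2 alone was undetected, at 6.59.

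Sirtuins are NAD-dependent deacylases found in nucleus, cytoplasm and mitochondria. All 7 were detected, beside 58.9% of all genes, but the median level was 0.77 log2. A linear signal of 500 was passed by 1 of the 7, Sirt2, beside 17.2% of all genes. Sirt2, mostly cytoplasmic, was at 9.55 on all 3 arrays, and Sirt1, the nuclear enzyme most studied in metabolism, at 8.77 on all 3, levels of 2.63 and 1.85. The mitochondrial Sirt3, Sirt4 and Sirt5 were near each other, with means of 7.66, 7.70 and 7.32. Sirt7, found in the nucleolus, held 7.73, 7.63 and 7.73. Sirt6, a chromatin-bound enzyme, was at 7.02 on each array, a level of 0.09 with a standard error of 0.03 (limma adjusted p = 0.00099). That call was lost without replicate 1, without replicate 3, and with background at the 99th percentile of the receptors. Leaving out an array changed the background and the test but not the signal of Sirt6.

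SWI/SNF-related genes had a median level of 2.02 log2, and all 13 were detected, beside 58.9% of all genes. Of the 13, 6 were over 500 and 3 over 1000, beside 17.2% and 7.59% of all genes. The motor subunits of SWI/SNF are Smarca2 (BRM) and Smarca4 (BRG1), and a complex holds 1 of them. Smarca2 held 10.37, 10.20 and 10.13, a level of 3.31, and Smarca4 held 9.25, 9.19 and 9.21, a level of 2.29, so both motors were above background in every preparation. Smarca5, the motor of ISWI complexes, held 10.92, 10.51 and 10.45, and its relative Smarca1, on the X chromosome, 7.42 on every array. Smarcad1, which helps restore silent chromatin after replication, held 9.61, 9.38 and 9.38. Smarcal1, a fork-remodelling ATPase whose loss in humans causes a disorder with glomerular disease, held 8.28, 8.07 and 8.07, a level of 1.22.

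The 7 core and accessory subunits had a median level of 1.62 log2. Smarcc2 held 10.53, 10.53 and 10.52 and Smarcc1, the other scaffold subunit, 8.94 on all arrays, levels of 3.61 and 2.02. Smarce1 held 9.94, 9.94 and 9.95, and the tumour suppressor subunit Smarcb1 8.56, 8.51 and 8.56. Of the exchangeable Smarcd subunits, Smarcd1 held 7.98, 8.04 and 7.98, Smarcd2 8.23, 8.14 and 8.23, and Smarcd3, known from heart and neurons, 7.88 on every array. The partners without a Smarc symbol were detected in 19 of 20 cases, 5 over 500, with a median level of 1.57. Pbrm1, the bromodomain subunit of the PBAF form, held 11.75, 11.38 and 11.46, followed by Dpf2 (mean 9.99) and Brd7 (9.92), and the neuronal subunit Actl6b was undetected at 6.48.

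**Figure D2:**
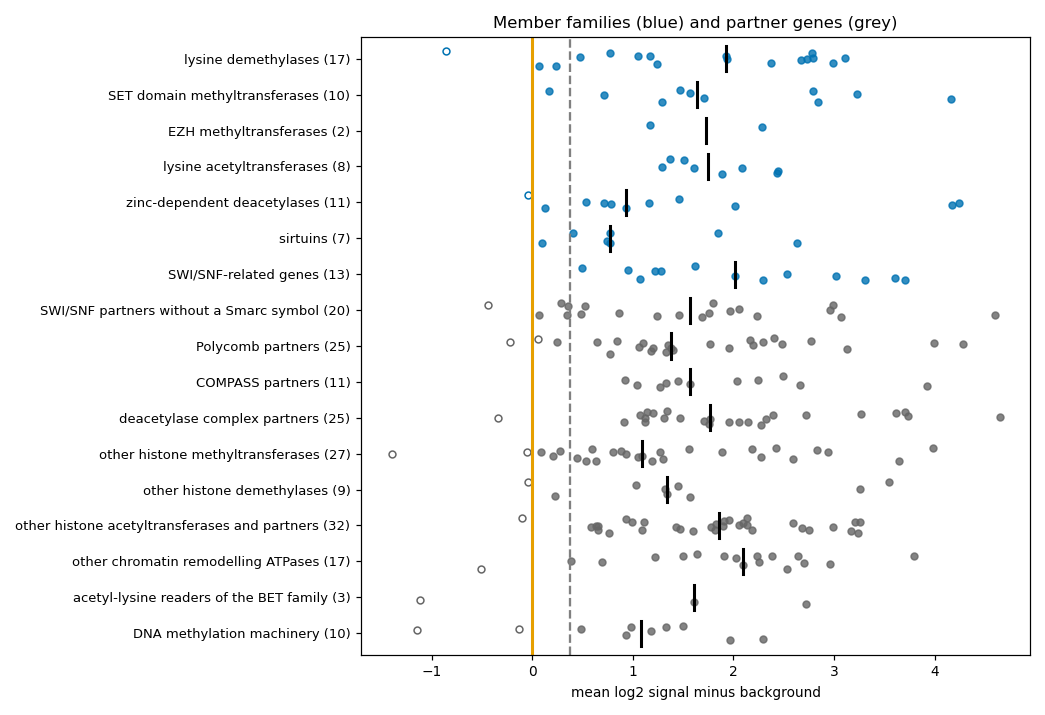
Mean log2 signal minus background (horizontal axis) for every gene of the 7 families (blue) and of the partner lists (grey), with the number of genes in parentheses, open circles for undetected genes and a black bar at each median. The orange line is background and the dashed line the median of all genes, 0.37. Every family median lies to the right of the dashed line, from 0.77 for the sirtuins to 2.02 for the SWI/SNF-related genes.

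Enzymes of the same marks also occur under other symbols. Of 27 other histone methyltransferases, 25 were detected with a median level of 1.09 log2. The mixed-lineage genes Kmt2e, Kmt2d and Kmt2a were the highest, at means of 10.91, 10.57 and 9.86, and Smyd5 (6.87) and Prmt8 (5.52) were undetected. All 11 measured partners of the COMPASS promoter methyltransferases were detected, with a median level of 1.57, and Dpy30 held 11.10, 10.60 and 10.86. Of 9 other demethylases 8 were detected, led by Riox1 (mean 10.47) and Jmjd1c (10.18), with Hspbap1 undetected at 6.88. The Y-linked Uty, a paralogue of Kdm6a, held 8.29, 8.24 and 8.21, and all 5 X-linked members (Kdm5c, Kdm6a, Smarca1, Hdac6 and Hdac8) were detected in these male samples. Over all 10 partner lists together 167 of 179 genes were detected, with a median level of 1.57, beside 1.54 for the 68.

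The study drew up a list of transcription-related genes of the podocyte, on sorted cells that are not used here, and 5 of its entries are among the 68: Smarca2, Setd7, Kdm4c, Kdm7a and Kat2b. That list had been selected for higher signal in adult podocytes than in total kidney cortex or in embryonic podocytes. Its genes had also passed a filter on minimum raw signal in the study's samples. Detection and high signal in corpuscles, which contain podocytes, were thus favoured by the selection. The shares of all genes given here had no such selection, so the comparison with them is not a test of these 5. In the sieved corpuscles all 5 were detected, beside 58.9% of all genes, with a median level of 2.84 log2. Of the 5, 4 passed a linear signal of 500 on every array, beside 17.2% of all genes. Kat2b, at 8.43, was the exception. The values do not say which cells of the preparation, tubule and immune cells included, carried these transcripts.

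The 3 preparations differed little in these genes, and about as little in all genes of the table. Highest and lowest array differed by over 1.5-fold in 0 of the 68, beside 1.18% of all genes, and by over 25% in 3, beside 4.44%. Those 3 were Setdb2, at 1.42-fold, Smarca5 and Hdac2. Identical values set a limit on such statements, because 34 of the 68 hold 1 value on all 3 arrays to every decimal deposited, as do 54.2% of all genes. An SD of 0 is thus not an error of 0. Of this kind were 9 of 11 zinc-dependent deacetylases, all 4 of class IIa among them, 5 of 7 sirtuins and 5 of 8 acetyltransferases. So were 9 of 17 demethylases, 2 of 10 SET domain, 1 of 2 EZH and 3 of 13 SWI/SNF-related genes. For the genes that varied most, the SD over the 3 arrays was 0.25 log2 for Smarca5 and for Setdb2, 0.21 for Hdac2, 0.15 for Setd6, 0.13 for Smarcad1 and 0.12 for Smarca2.

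Among the 34 members whose arrays were not all equal, replicate 1 was alone highest in 18, replicate 2 in 2 and replicate 3 in 2. Over all 68 this is 26.5%, beside 13.8% of all genes. Replicate 3 was alone lowest in 14, or 20.6% of the 68, beside 11.5%. Smarca5, Hdac2, Smarca2, Kdm3a and Kat6b were highest on replicate 1 and lowest on replicate 3, and Setdb2 was highest on replicate 2. The size was small: the mean deviation of the 68 from their own 3-array mean was 0.03 log2 on replicate 1, -0.01 on replicate 2 and -0.02 on replicate 3. These counts rest on small differences and changed with the scaling. After quantile normalization between the arrays, replicate 1 was alone highest in 14 of the 34 and replicate 3 in 15, and after centring the arrays on their medians in 17 and 13. Replicate 3 was alone lowest in 8 after either step, and replicate 2 in 17 and 18, against 6 as deposited. Markers moved between the same arrays in both directions. Replicate 1 was alone highest in 4 of 9 genes of dividing cells and 3 of 7 endothelial markers, with mean deviations of 0.10 and 0.07. The same held for 2 of 6 podocyte and 2 of 8 distal tubule and collecting duct markers (0.04 and -0.06). It held for 0 of 5 mesangial, 0 of 8 proximal tubule and 0 of 7 immune cell markers (-0.05, -0.05 and 0.03). These marker counts were not repeated after rescaling the arrays. All 8 measured interferon-stimulated genes were highest on replicate 2, with a mean deviation of 0.99, the array on which 2 of the 68 chromatin genes were alone highest. The part of these differences between preparations in the chromatin genes was not tested.

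**Figure D3:**
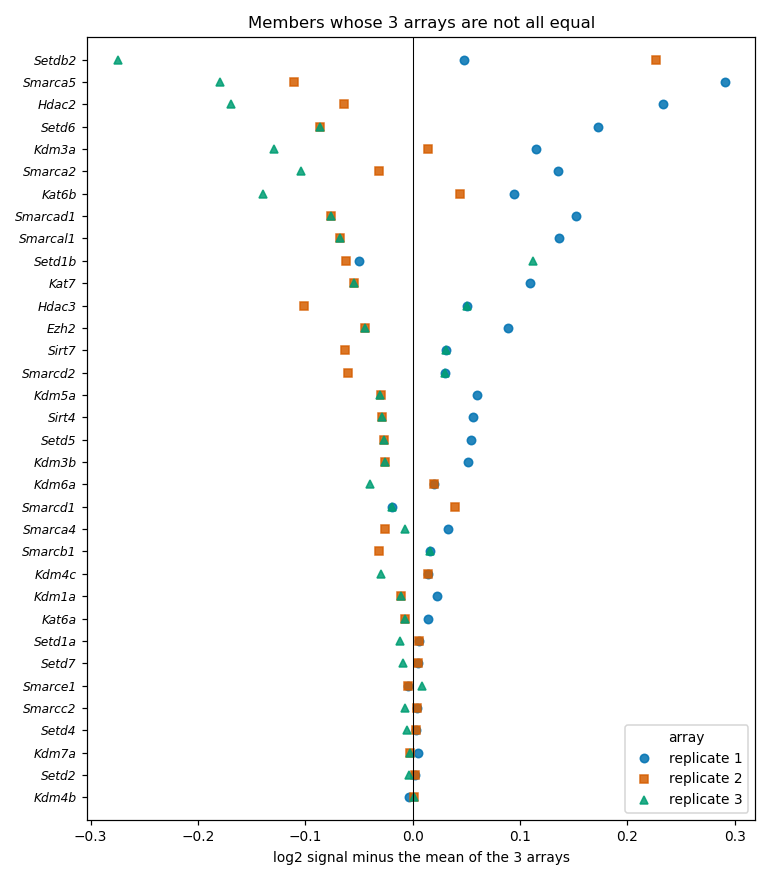
Deviation of each array from the gene's 3-array mean, in log2 (horizontal axis), for the 34 genes whose 3 values are not all equal. Genes are ordered by the difference between their highest and lowest array. Replicate 1 is a circle, replicate 2 a square and replicate 3 a triangle. In the values as deposited circles alone lie farthest right in 18 genes and triangles alone farthest left in 14, or 14 and 8 after quantile normalization, and no gene spans more than the 0.50 log2 of Setdb2.

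The 68 genes were read by 76 single-gene probe sets. Of the genes, 61 had 1 set, 6 had 2 and Smarce1 had 3, and 3 further sets that name Smarca5 beside another gene were left out. Probe sets of this array are numbered largely in genome order, and each set was therefore set against the chromosome of its 10 neighbours on either side. In 72 sets the neighbours lay on the gene's own chromosome and in 4 they lay elsewhere. One of the 4 carried the value used: for Smarce1 on chromosome 11 the brightest set, 9.94 log2, has neighbours on chromosome 5, and the set placed on chromosome 11 held 9.41 on every array, 2.49 above background. For Hdac1 and Setd3 the sets used lay on the genes' own chromosomes 4 and 12, and the second sets, at means of 10.87 and 8.28, had neighbours on chromosomes 17 and 2. What the 4 sets with neighbours elsewhere read was not tested.

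Probe sets of 1 gene on its own chromosome could differ as well. Setd1b was at 8.39 with 1 set and 7.32 with the other, a gap of 1.08 log2. Kdm7a held 9.75, 9.36 and 9.28 with its second set, 0.57 below the mean of the one used, and its arrays lay farther apart than those of the set used. Setd2 and Hdac4 differed by 0.06 and 0.17 between their sets. All 7 genes with several sets were above background with each of them.

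**Figure D4:**
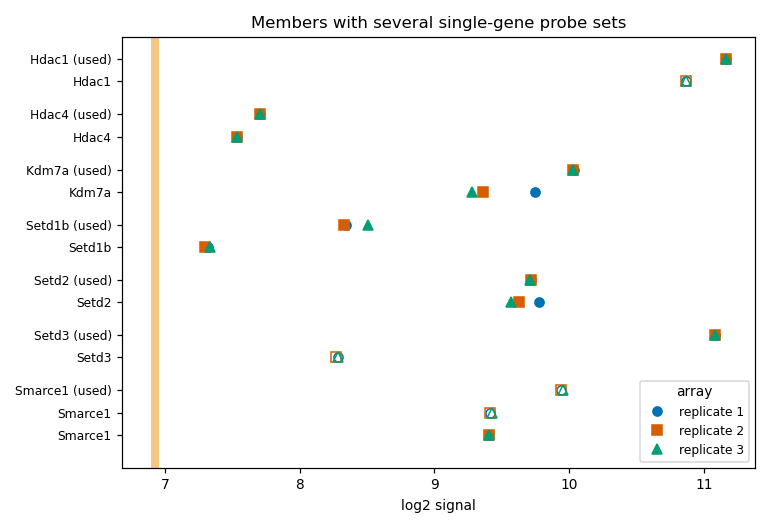
Log2 signal (horizontal axis) of every single-gene probe set of the 7 genes that have several, with a circle for replicate 1, a square for replicate 2 and a triangle for replicate 3, and the background of the arrays as an orange band. Open symbols mark the 4 sets whose neighbours lie on another chromosome, and these include the Smarce1 set in use at 9.94 and the second Setd3 set at 8.28.

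Housekeeping chromatin genes commonly start in CpG islands, stretches where the dinucleotide CG has not been depleted. Upstream sequence of 250 bases was read from the RefSeq promoter table of mouse build GRCm38.p6, which held a window for 57 of the 68 genes. Their median ratio of observed to expected CG was 0.84, beside 0.62 over the 15563 genes of the array with a window and 0.40 over the 27025 genes of that table. A ratio of at least 0.6 was found in 46 of the 57, or 80.7%, beside 51.9% of the array genes and 36.5% of the table. Only 78.1% of the array's genes have a window, so the share over all of them is not known. Where a gene had several starts, which held for 13 genes, the window with the highest ratio was used, for the members and for the table alike, and with the lowest one 42 of the 57 reached 0.6. The letters TATAAA occurred on either strand in 2 of the 57 windows, or 3.51%, beside 12.7% of the table. No such share was taken over the array genes, whose CG ratios differ from those of the table. Of the array genes with a window, 80.8% were detected at or over 0.6 and 38.3% under it. Among the members 44 of 46 and 11 of 11 were detected, and with 2 undetected genes these counts cannot show a relation.

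Windows at both ends of this range and those of the undetected genes are shown, each 5′ to 3′ on the strand of the gene and ending at the base before the annotated start, with every CG in capitals. Kdm7a (chr6:39206774-39207023, minus strand) had the highest ratio, 1.35, with 56 CG, and Setd5 (chr6:113104685-113104934, plus strand) had 0 CG. Ezh1 (chr11:101226464-101226713, minus strand) and Ezh2 (chr6:47595031-47595280, minus strand) had 14 and 23, with ratios of 0.74 and 0.91. The undetected Kdm4d (chr9:14500483-14500732, minus strand) and Hdac11 (chr6:91156565-91156814, plus strand) had 14 and 17, with ratios of 0.84 and 0.65.
Kdm7a: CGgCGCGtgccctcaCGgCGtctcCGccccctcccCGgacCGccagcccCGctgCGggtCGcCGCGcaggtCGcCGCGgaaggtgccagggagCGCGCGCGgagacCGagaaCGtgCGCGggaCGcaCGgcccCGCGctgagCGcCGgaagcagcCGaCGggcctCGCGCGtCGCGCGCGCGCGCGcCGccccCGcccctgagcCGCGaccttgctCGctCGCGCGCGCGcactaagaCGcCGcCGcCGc
Setd5: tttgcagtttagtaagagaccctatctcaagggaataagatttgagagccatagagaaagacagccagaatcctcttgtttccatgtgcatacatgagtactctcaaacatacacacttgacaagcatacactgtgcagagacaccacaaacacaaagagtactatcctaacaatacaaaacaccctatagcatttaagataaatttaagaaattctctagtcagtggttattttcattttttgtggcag
Ezh1: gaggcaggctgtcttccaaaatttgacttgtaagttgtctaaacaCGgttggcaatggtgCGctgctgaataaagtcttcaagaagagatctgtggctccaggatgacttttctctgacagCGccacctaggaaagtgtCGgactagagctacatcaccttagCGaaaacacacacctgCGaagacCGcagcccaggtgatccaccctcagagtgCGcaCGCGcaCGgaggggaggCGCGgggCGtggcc
Ezh2: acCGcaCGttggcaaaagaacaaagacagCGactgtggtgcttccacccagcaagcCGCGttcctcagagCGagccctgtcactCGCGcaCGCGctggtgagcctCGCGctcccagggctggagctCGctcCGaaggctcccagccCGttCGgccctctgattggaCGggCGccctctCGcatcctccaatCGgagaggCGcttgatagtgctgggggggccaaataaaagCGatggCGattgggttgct
Kdm4d: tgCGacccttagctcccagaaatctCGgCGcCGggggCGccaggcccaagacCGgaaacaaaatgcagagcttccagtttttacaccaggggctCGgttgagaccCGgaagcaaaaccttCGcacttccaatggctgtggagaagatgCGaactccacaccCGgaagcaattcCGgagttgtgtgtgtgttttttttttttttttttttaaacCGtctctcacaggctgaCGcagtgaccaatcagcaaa
Hdac11: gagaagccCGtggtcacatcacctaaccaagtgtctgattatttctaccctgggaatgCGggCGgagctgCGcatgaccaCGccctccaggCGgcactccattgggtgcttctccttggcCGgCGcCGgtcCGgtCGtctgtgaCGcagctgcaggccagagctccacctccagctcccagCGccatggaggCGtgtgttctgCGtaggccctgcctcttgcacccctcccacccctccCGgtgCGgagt
Kdm7a and Setd5 were both among the 8 genes over a linear signal of 1000. The windows at the extremes of CG content thus belonged to genes with mean signals of 10.04 and 10.15 log2. For Setd5 the promoter table held 1 window. Whether its transcripts in these samples start at that annotated position was not tested, so 0 CG describes the window and not a proven promoter.

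**Figure D5:**
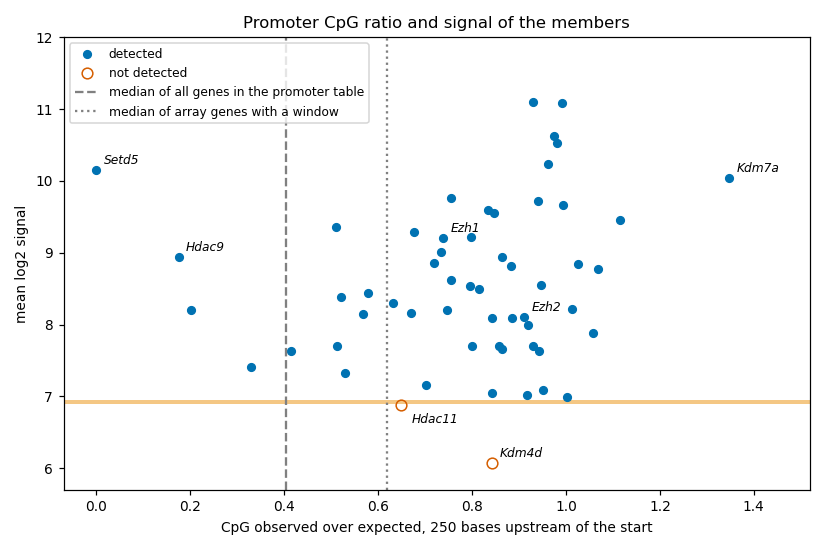
Observed over expected CG ratio in the 250 bases upstream of the annotated start (horizontal axis) against mean log2 signal (vertical axis) for the 57 genes with a window, with open circles for the undetected Kdm4d and Hdac11. The dashed line is the median of all genes of the promoter table, 0.40, the dotted line that of the array genes with a window, 0.62, and the orange line is background. Most points lie right of both lines, at signals anywhere from background to over 11 log2. Setd5 stands at a ratio of 0 and a signal of 10.15, with a window whose annotated start was not tested in these samples.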

How the data were processed

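The authors deposited 1 table of log2 signals for 35557 probe sets on 3 arrays. Affymetrix Expression Console is named in the submitters' processing notes, without a summary method. The study's methods name GeneSpring with an RMA algorithm for its own comparisons, and whether that step made the deposited table is not stated. No further normalization was applied, and array medians were 7.11, 7.11 and 7.09. The table held 0 columns of other samples. Many values are identical on several arrays, so SDs and standard errors may be too small, and the number of arrays limits the precision. The platform annotation named 1 gene for 21789 probe sets, several for 1621 and none for 12147. A gene's probe set with the highest mean gave 19938 genes, and 21698 of the named sets had a gene ID in the reference table, which changed 0 symbols.

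Detection was tested with limma 3.58.1 in R 4.3.3 (lmFit with an intercept, eBayes with a trend) on log2 signal minus the 95th percentile of the receptor probe sets of each array. The standard error of this test follows a gene's level rather than its own spread. No test was made over a list. Linear levels of 150, 500 and 1000 had to be exceeded on all 3 arrays. Counts and plots were made with Python 3.11.15, pandas 2.3.3, numpy 2.4.6 and matplotlib 3.10.9. Named with the value on every array were, per family, up to 4 detected genes of highest signal and up to 3 undetected ones, the study's list members, the 6 genes of largest SD and 6 paralogue pairs; all other members are given as well. The members and lists were chosen with earlier results of these data known. Alternatives to background, probe set, normalization, test and replicates are given in the closing section.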

Additional observations from a re-analysis of the deposited data

How the results depend on the processing

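The count of 66 detected genes stayed between 64 and 68 under every setting tried except background at the 99th percentile of receptors. That setting left 57 of 68, beside 41.7% of all genes, and undetected in addition were Hdac6, Hdac10, Kdm1b, Kdm2b, Kdm4b, Setd4, Sirt5, Sirt6 and Smarca1. The median level was then 0.91 log2. Background at the receptors' median gave 3.09, all 68 were detected beside 18031 genes in all, and Hdac11 and Kdm4d stood at 1.51 and 0.70 above background. With the lowest probe set of each gene the median was 1.48, and 6 members passed 1000 on each array. Kdm2b was lost with olfactory receptors only and at an adjusted p under 0.01, each leaving 65. Leaving out 1 array gave 64 to 66 detected, and Kdm2b and Sirt6 were lost without replicate 1 or without replicate 3. Between arrays, 3 members differed by over 25% and 0 by over 1.5-fold. The scaling checks of which array was highest were added after seeing the data. No paired analysis was possible because only 1 group of samples exists.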

Other observations

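Further lists covered chromatin genes outside the families described above, beside 58.9% of all genes detected. Of 17 other remodelling ATPases 16 were detected, 8 of them over a linear signal of 500, with a median level of 2.09 log2. Atrx, which deposits a histone variant in heterochromatin, held 10.87, 10.64 and 10.64, followed by Chd1 (mean 9.88) and Chd9 (9.62). Hells, known from dividing cells, was at 6.41 on every array and undetected. Replicate 1 was alone highest in 11 of these 17 genes, or 64.7%, beside 13.8% of all genes. In all partner lists this held for 63 of the 179 genes, or 35.2%. Both counts are of the values as deposited. They were not repeated after rescaling the arrays, which changed such counts in the 68 genes.

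Of 10 measured genes of the DNA methylation machinery 8 were detected, with a median level of 1.08, and 1 of them, the maintenance methyltransferase Dnmt1, passed 500, at 9.21 on all 3 arrays. Dnmt3a (mean 8.89) and Tet1 (8.42) followed. Uhrf1, the partner of Dnmt1 at replicated DNA, was at 6.79 and the germ-line factor Dnmt3l at 5.77, both undetected. Of the BET readers of acetylated histones, Brd2 (mean 9.64) and Brd3 (8.53) were detected and the testis gene Brdt (5.81) was not.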
